A study of Mus musculus with 6 samples.

Results

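The 7 genes described here are tetraspanins, Cd63, Cd9, Cd81, Cd82, Cd53, Cd37 and Cd151, taken by symbol from a table of 55493 mouse genes and human transgene rows, and all 7 were measured. They were chosen with earlier results of these libraries known, in which Cd63 and Cd9 were lower after treatment, so their treatment differences are given as a description and not as a test. RNA was sequenced from microglia, the macrophages that reside in brain tissue, after a sort for low CD45 and for CD11b, from male mice that were 4 months old when dosing began. Both groups carried the ILT Telo Tg transgene, which holds human LILR genes, and the 5XFAD transgenes, a model of amyloid deposition. The anti-LILRB4 group received clone ZM3.1, an Fc-mutant antibody that binds human LILRB4 (ILT3), an inhibitory receptor of myeloid cells, and the control group received clone 27D6, an Fc-mutant control antibody labelled Ctrl IgG2a. Each antibody was given intraperitoneally at 60 mg/kg in 8 weekly injections. There were 3 libraries per group, named here control 1 to 3 and anti-LILRB4 1 to 3. The labels do not say whether each library came from a separate mouse, so the spread given is that between libraries, which may be technical. The comparison addresses what blocking LILRB4 in vivo does to the microglial transcriptome.

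Tetraspanins are small proteins that cross the membrane repeatedly and gather integrins, immunoglobulin-family proteins and proteases into membrane domains. CD63 cycles between the surface and late endosomes or lysosomes and is a standard marker of exosomes, while CD9 and CD81 sit mainly at the surface and on extracellular vesicles. CD53 and CD37 are largely restricted to leukocytes, CD82 is widely expressed in immune cells and restrains migration, and CD151 binds laminin-receptor integrins. In microglia Cd63 and Cd9 are known as genes raised in the disease-associated state around amyloid, and Cd81 is abundant in microglia at rest.

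Total counts were between 39805118 and 56345514 per library. The label of the cells was borne out by their markers, since all 8 microglia markers were measured, among them the purinergic receptor gene P2ry12 at 11255 to 13653 CPM (reads scaled to a common library size by TMM). Neuron markers summed to at most 1.4 CPM. Neutrophil markers varied widely between libraries, with a sum over 10 genes of 550.2 to 1303 CPM in controls, against 127, 1074 and 207 CPM in anti-LILRB4 1, 2 and 3.

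The 7 transcripts spanned a wide range of abundance. Compared per kilobase of merged exons, Cd81 averaged 3009.8 CPM per kb over the 6 libraries and Cd53 2758 CPM per kb. Cd9 followed at 972 CPM per kb and Cd63 at 264 CPM per kb. Cd37 (144 CPM per kb) and Cd82 (135 CPM per kb) were lower, and Cd151 was lowest at 35.8 CPM per kb. The order of Cd81, Cd53, Cd9 and Cd63 was the same in 5 of 6 libraries, and in anti-LILRB4 3 Cd53 (2832 CPM per kb) lay above Cd81 (2612 CPM per kb). Cd37 and Cd82 were not separated by this measure, since Cd82 was the higher in all 3 controls and Cd37 in all 3 anti-LILRB4 libraries. The gene model sets part of this order. Per kilobase of the longest principal transcript, a choice made after seeing the data, Cd81 stood at 5652, Cd53 at 2758, Cd9 at 1618 and Cd63 at 877 CPM per kb. On that scale Cd37 (412 CPM per kb) lay above Cd82 (223 CPM per kb) in all 6 libraries and Cd81 above Cd53 in all 6. The merged exons of Cd63 cover 3682 bases and its principal transcript 1109, the largest such ratio among the 7.

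**Figure D1:**
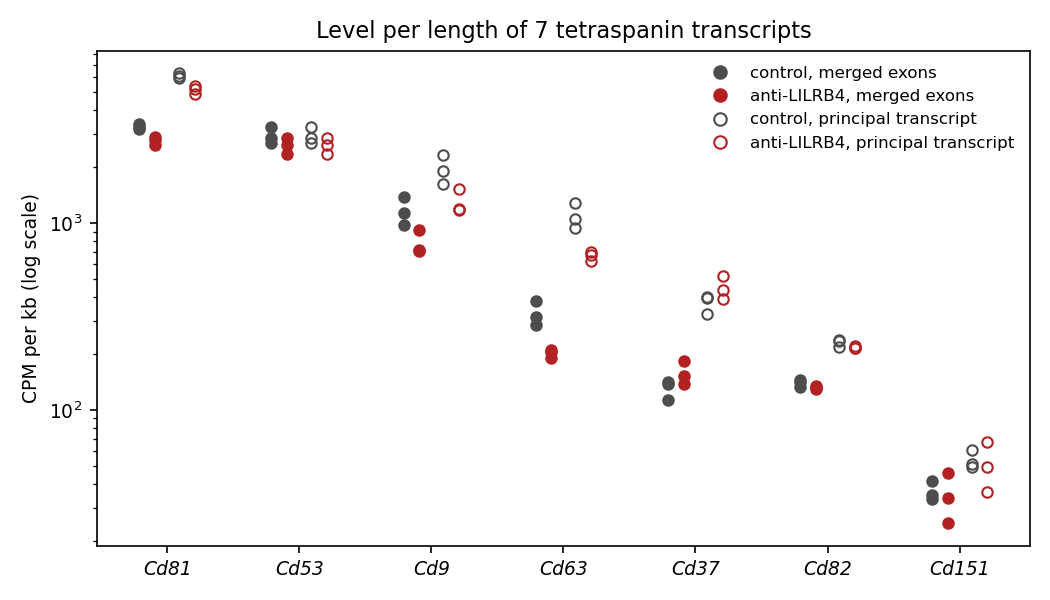
Level of each tetraspanin transcript per kilobase on a log scale, with 1 point per library, for controls (grey) and anti-LILRB4 libraries (red), by merged exon length (filled) and principal transcript length (open). Cd81 and Cd53 lie highest and Cd151 lowest on both length scales, and Cd37 and Cd82 are close by merged exons and apart by principal transcript.

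After anti-LILRB4 treatment, Cd63, Cd9 and Cd81 were at lower levels than in any control library, Cd53 and Cd82 lay lower on average with overlapping groups, Cd37 lay higher with overlapping groups, and Cd151 was spread most among treated libraries. The mean level in treated libraries was 0.613 of the control mean for Cd63, 0.669 for Cd9, 0.843 for Cd81 and 1.2 for Cd37. The groups did not overlap in 3 of the 7, each lower and 0 higher, where 7.79% of all 18210 genes tested were lower and 6.94% higher without overlap. In edgeR's quasi-likelihood test 0 of 7 passed a Benjamini-Hochberg adjusted p of 0.05, where 0% of all genes were called. DESeq2 called Cd63 and Cd9 lower, where it called 0.553% of genes lower. Shares for DESeq2 are of the 15378 genes to which it gave an adjusted p. At an unadjusted p under 0.05 edgeR had Cd63, Cd9 and Cd81 lower and 0 higher, where 3.91% of all genes were lower and 4.12% higher. As the genes were chosen from this contrast, nothing is read from these counts. In bulk samples fewer cells of a type and less RNA per cell cannot be told apart.

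Cd63 (ENSMUSG00000025351, GRCm38 chromosome 10, 128900989 to 128912822, plus strand) encodes the late endosomal member. It was at 1413, 1046 and 1159 CPM in controls 1, 2 and 3, and at 774, 696 and 749 CPM in anti-LILRB4 1, 2 and 3. Control 1 was the highest library, and the treated libraries lay close together. The SD was 15.6% of the mean in controls and 5.34% in treated libraries. The log2 fold change, treated minus control, was -0.71 ± 0.12 (SE). In the authors' deposited table it was -0.70 with an adjusted p of 0.000293.

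Cd9 (ENSMUSG00000030342, chromosome 6, 125460266 to 125494791, minus strand) encodes a surface member that is also carried on vesicles. It was at 2824, 1995 and 2322 CPM in controls 1, 2 and 3, and at 1870.5, 1462 and 1446 CPM in anti-LILRB4 1, 2 and 3. The groups did not overlap, but control 2 and anti-LILRB4 1 were close. The log2 fold change was -0.58 ± 0.14. (SE) Without control 1 the log2 fold change was -0.44. The authors' deposited table gave Cd9 a log2 fold change of -0.58 and an adjusted p of 0.0398, with 0.477% of its genes lower at an adjusted p under 0.05. Its exons share 218 bases with Gm26728 on the other strand. Counting by strand is not stated, so reads of these bases may belong to either gene, and Gm26728 was itself at 0.607 to 1.71 CPM.

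Cd81 (ENSMUSG00000037706, chromosome 7, 143052739 to 143067934, plus strand) encodes a surface member that is also carried on vesicles and was the most abundant of the 7 by CPM. It was at 9685, 9150.4 and 9379.6 CPM in controls 1, 2 and 3, and at 7965, 8292 and 7519.5 CPM in anti-LILRB4 1, 2 and 3. Controls varied little, with an SD of 2.85% of their mean, and all treated libraries lay below them. The log2 fold change was -0.25 ± 0.062 (SE), and the authors' deposited table gave it an adjusted p of 0.195. Its exons share 104 bases with R74862, at 7.28 to 15.6 CPM.

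Cd53 (ENSMUSG00000040747, chromosome 3, 106759921 to 106790149, minus strand), a pan-leukocyte member, was at 5680.4, 4654 and 4932 CPM in controls 1, 2 and 3. It was at 4531, 4091 and 4933 CPM in anti-LILRB4 1, 2 and 3. The groups overlapped, since anti-LILRB4 3 lay level with control 3. The log2 fold change was -0.17 ± 0.095 (SE), and it was -0.09 without control 1 and -0.10 without anti-LILRB4 2.

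Cd37 (ENSMUSG00000030798, chromosome 7, 45233632 to 45239115, minus strand), the other leukocyte member and a regulator of B cell survival, was at 397, 494 and 486 CPM in controls 1, 2 and 3. It was at 483, 640.4 and 535 CPM in anti-LILRB4 1, 2 and 3. Anti-LILRB4 1 fell within the control range, and control 1 and anti-LILRB4 2 were the extremes. The log2 fold change was 0.27 ± 0.13. (SE) It was 0.17 without control 1 and 0.16 without anti-LILRB4 2. Its exons share 13 bases with Tead2, at 1.54 to 3.49 CPM. The exact count of B cells in the sort is not known, and markers of B cells are given with the other cell types.

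Cd82 (ENSMUSG00000027215, chromosome 2, 93419111 to 93463140, minus strand) varied least among treated libraries, with an SD of 1.44% of their mean. It was at 396, 434 and 425 CPM in controls 1, 2 and 3, and at 392, 391 and 401 CPM in anti-LILRB4 1, 2 and 3. The groups overlapped at control 1, and the log2 fold change was -0.08 ± 0.089. (SE) Leaving out single libraries gave -0.12 to -0.05.

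Cd151 (ENSMUSG00000025510, chromosome 7, 141467392 to 141471473, plus strand), the integrin partner, was at 92.1, 114 and 95.9 CPM in controls 1, 2 and 3. It was at 67.9, 92.5 and 126 CPM in anti-LILRB4 1, 2 and 3. The treated libraries held both the lowest and the highest value, and their SD was 30.5% of their mean against 11.8% in controls. The log2 fold change was -0.08 ± 0.20. (SE) Its sign turned without control 2 (0.03) and without anti-LILRB4 1 (0.12), and it was -0.33 without anti-LILRB4 3. Its exons share 193 bases with Gm10575, at 0.0728 to 0.497 CPM.

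**Figure D2:**
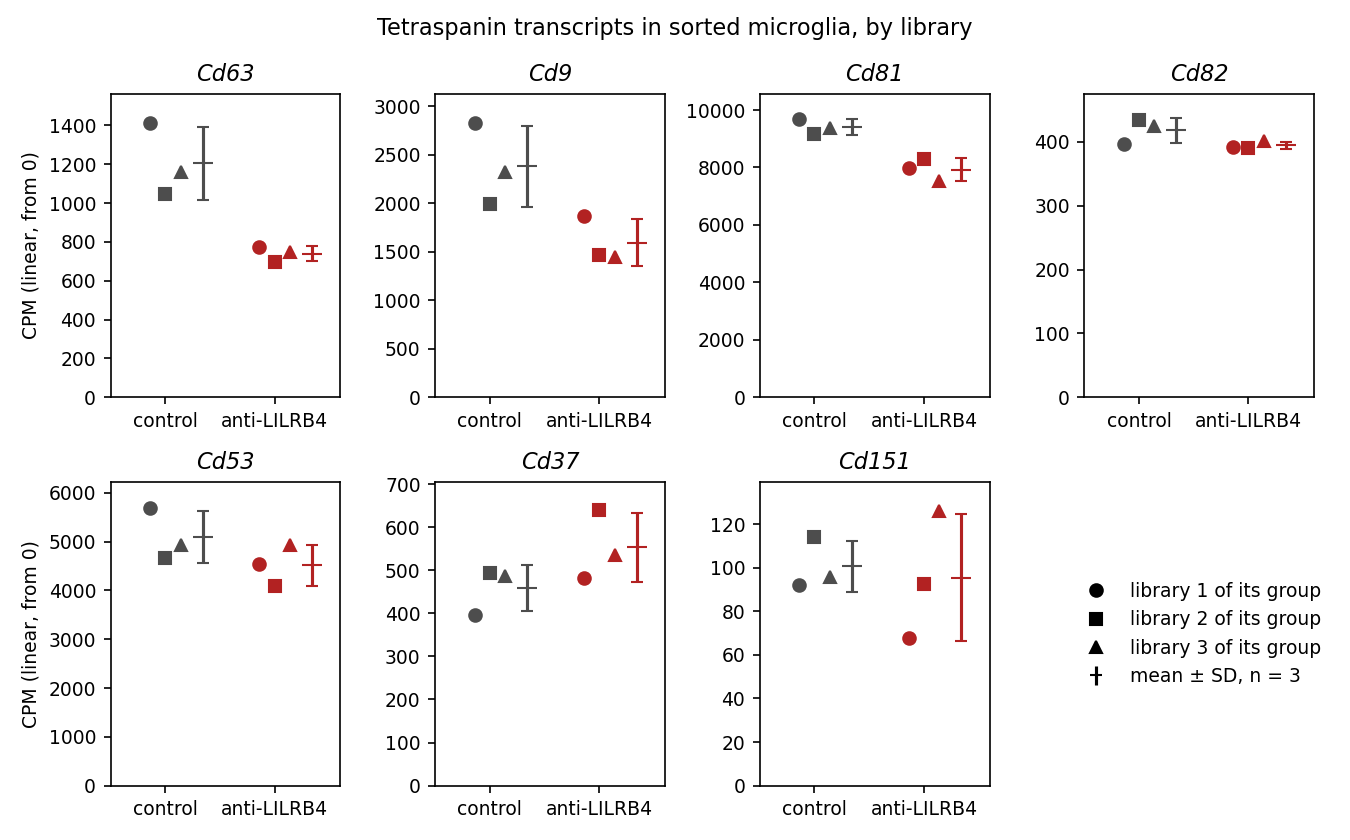
CPM of the 7 tetraspanin transcripts on linear axes from 0, with 1 symbol per library (circle, square and triangle for libraries 1, 2 and 3 of each group) and the mean ± SD of 3 libraries beside them. Treated libraries lie below all controls for Cd63, Cd9 and Cd81, and the groups overlap for Cd82, Cd53, Cd37 and Cd151.

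The ratio of 2 transcripts within a library does not depend on how libraries are scaled. For every 100 Cd81 reads there were 14.6, 11.4 and 12.4 Cd63 reads in controls 1, 2 and 3. In anti-LILRB4 1, 2 and 3 there were 9.71, 8.4 and 9.96. Cd63 was lower relative to Cd81 in each treated library than in each control. As Cd63 was chosen with its lower level known, this is a description, and other gene pairs were not surveyed. The Cd9 count per 100 Cd81 reads was 29.2, 21.8 and 24.8 in the controls and 23.5, 17.6 and 19.2 in treated libraries, and these groups overlapped. The ratio of Cd63 to Cd9 overlapped as well, at 0.501, 0.524 and 0.499 in controls and 0.414, 0.476 and 0.518 in treated libraries. The ratio of the leukocyte member Cd37 to the endosomal member Cd63 has Cd63 as its denominator, so lower Cd63 alone raises it. Cd37 by itself overlapped between the groups. The Cd37 count was 0.281, 0.472 and 0.419 of the Cd63 count in controls and 0.624, 0.92 and 0.714 of it in treated libraries, with no overlap. All 7 genes together took 2.01, 1.81 and 1.86% of counts in controls and 1.64, 1.59 and 1.54% in treated libraries, while the other 24 tetraspanins together took 0.271 to 0.301% in all 6.

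Across the 6 libraries, pairs of members ranged from closely parallel to opposed, as a description over points that share the treatment difference. Cd63 and Cd9 had a Pearson correlation of log2 CPM of 0.95, and 0.87 when each library was set against its group mean. Cd63 and Cd81 had 0.91, but 0.3 against group means, so that their likeness lay mainly between the groups. Cd37 ran against Cd63 (-0.84, and -0.84 against group means), Cd9 (-0.89 and -0.83) and Cd53 (-0.88 and -0.81). Relative to the control mean, control 1 was at 0.24 for Cd63, 0.26 for Cd9 and 0.16 for Cd53 on the log2 scale, and at -0.20 for Cd37. In anti-LILRB4 2 the same genes were at -0.78, -0.69 and -0.31, and Cd37 at 0.49.

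**Figure D3:**
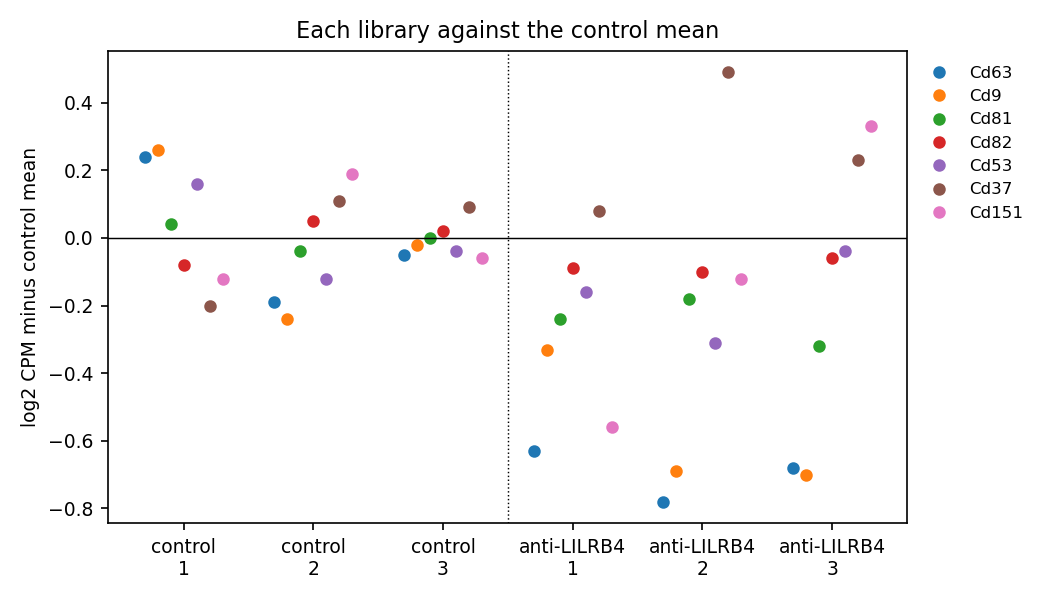
Log2 CPM of each member in each library, minus that gene's control mean, with 1 colour per gene and libraries 1 to 3 of each group side by side. Cd63 and Cd9 lie below 0 in all treated libraries, and Cd37 lies above 0 in all of them and highest in anti-LILRB4 2.

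Among 7534 named genes with a mean of at least 10 CPM, those whose log2 CPM followed each member most closely over the 6 libraries were taken as a description. For Cd63 they were Ndufs1, a subunit of respiratory complex I, and Bnip3, a mitophagy receptor (r = 0.997 each), and Dusp6, an ERK phosphatase (r = 0.991). For Cd9 they were Rad1, a DNA damage checkpoint protein (r = 0.992), Ank, a membrane protein of pyrophosphate export (r = 0.984), and the noncoding Snhg12 (r = 0.983). Of these 6, Ank differed most between groups, at 90.4 CPM in controls and 54.5 CPM in treated libraries, and its edgeR adjusted p was 0.426. Those nearest to Cd81 were Pwwp2b, Wdcp and Snx13 (r = 0.996, 0.993 and 0.988). Those nearest to Cd53 were Slc25a3, the mitochondrial phosphate carrier, Hspe1, a mitochondrial chaperonin, and Selenok (r = 0.996, 0.994 and 0.993). Those nearest to Cd37 were Cabin1, an inhibitor of calcineurin, Maged2 and the kinase gene Map3k1 (r = 0.999, 0.997 and 0.997). Cd82 was nearest to Dynlt1b, Ywhag and Auh (r = 0.992, 0.983 and 0.973), and Cd151 to Trak1, Marcks and Mknk2 (r = 0.981, 0.979 and 0.975). With 6 points and 7534 genes searched, these are the highest of many values, and no test was made of them.

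Promoter sequence was set beside these patterns for 2 members whose levels ran together, Cd63 and Cd9, and for the 2 leukocyte-restricted members, Cd53 and Cd37. The stretches run from 150 bases before an annotated RefSeq start to 25 after it, on the strand of the gene, in the GRCm38.p6 build. They lie at chr10:128909195-128909369 (plus strand), chr6:125494736-125494910 (minus), chr3:106790125-106790299 (minus) and chr7:45238815-45238989 (minus). Capitals mark matches, on either strand, to the PU.1 core GAGGAAGT, which reads ACTTCCTC on the other strand, and to the GC box GGGCGG.
Cd63: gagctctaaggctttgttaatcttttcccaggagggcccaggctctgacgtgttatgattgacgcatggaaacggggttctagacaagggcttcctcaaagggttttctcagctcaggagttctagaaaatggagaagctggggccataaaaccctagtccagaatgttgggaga
Cd9: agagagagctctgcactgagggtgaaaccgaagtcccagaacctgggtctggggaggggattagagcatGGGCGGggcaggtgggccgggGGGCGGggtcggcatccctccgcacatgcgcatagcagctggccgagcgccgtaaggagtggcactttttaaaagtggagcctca
Cd53: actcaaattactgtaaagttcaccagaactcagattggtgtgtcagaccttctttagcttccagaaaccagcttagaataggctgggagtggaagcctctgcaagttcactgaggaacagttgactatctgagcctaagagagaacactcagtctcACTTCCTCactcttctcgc
Cd37: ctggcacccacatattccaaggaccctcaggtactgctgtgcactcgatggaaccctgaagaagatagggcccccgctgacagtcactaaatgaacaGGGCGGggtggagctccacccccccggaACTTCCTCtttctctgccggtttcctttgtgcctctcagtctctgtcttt
The PU.1 core, the site of a factor that myeloid and B cells depend on, occurred in the windows of Cd53, at position 7 after the start, and of Cd37, at position -25. It was also in 1 of 4 Cd82 windows, and in none of those of Cd63, Cd9, Cd81 and Cd151. Of 32851 promoter windows of 300 bases (250 before to 50 after a start), 3.2% held it. The GC box occurred in windows of Cd9, Cd81, Cd82, Cd37 and Cd151 and in 35.7% of all windows. The E-box CACGTG, bound by the lysosomal regulators TFEB and MITF among others, was in the Cd37 window and in 7.15% of all windows. The TATA box letters TATAAA were in the Cd81 window, at position 7 after the start and not before it, and in 13.6% of all windows. None of these 4 motifs occurred in the Cd63 window, and no motif was shared by the Cd63 and Cd9 windows. Cd63 has further annotated starts that were not used here. A match is only these letters in the window, and the PU.1 core was shared by Cd53 and Cd37, whose levels ran opposite ways.

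The rest of the family was measured in the same fit. This list was also made with earlier results of these data known. It holds the tetraspanins left once the described members were taken out, so it is not an independent comparison. Of 24 other tetraspanins 17 passed the filter on low counts. In edgeR 0 of the 17 were called at an adjusted p of 0.05 (0% of all genes), and 0 had an unadjusted p under 0.05 (8.03% of all genes). DESeq2 called 0, where it called 1.1% of the 15378 genes to which it gave an adjusted p. It gave none to Tspan1, Tspan6 and Rom1. The median log2 fold change of the 17 was -0.08, with 8 positive and 9 negative, beside -0.007 over all genes tested. For the 10 with a mean of at least 10 CPM, log2 fold changes were between -0.26 and 0.14 and edgeR adjusted p between 0.675 and 0.995. The most abundant was Tspan14, which carries the ADAM10 protease to the surface, at 942 ± 40.6 CPM (SD, n = 3) in controls and 887 ± 48.7 CPM after treatment (log2 fold change -0.09). Upk1b, a uroplakin known from bladder epithelium, had a log2 fold change of 0.02, and Tspan7 one of -0.08. Tspan31, whose exons share 641 bases with Cdk4 on the other strand, had -0.16. Tspan13 had -0.08, Tspan4, known from migrasomes, 0.03, Tspan9 0.14 and Tspan5 0.01. Tspan3 was at 90.7, 89 and 106 CPM in controls and at 83.8, 77.5 and 83.9 CPM in treated libraries, without overlap, with a log2 fold change of -0.22, a standard error of 0.12 and an edgeR adjusted p of 0.675. It was the only one of the 17 without overlap between groups (14.7% of all genes in either direction).

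**Figure D4:**
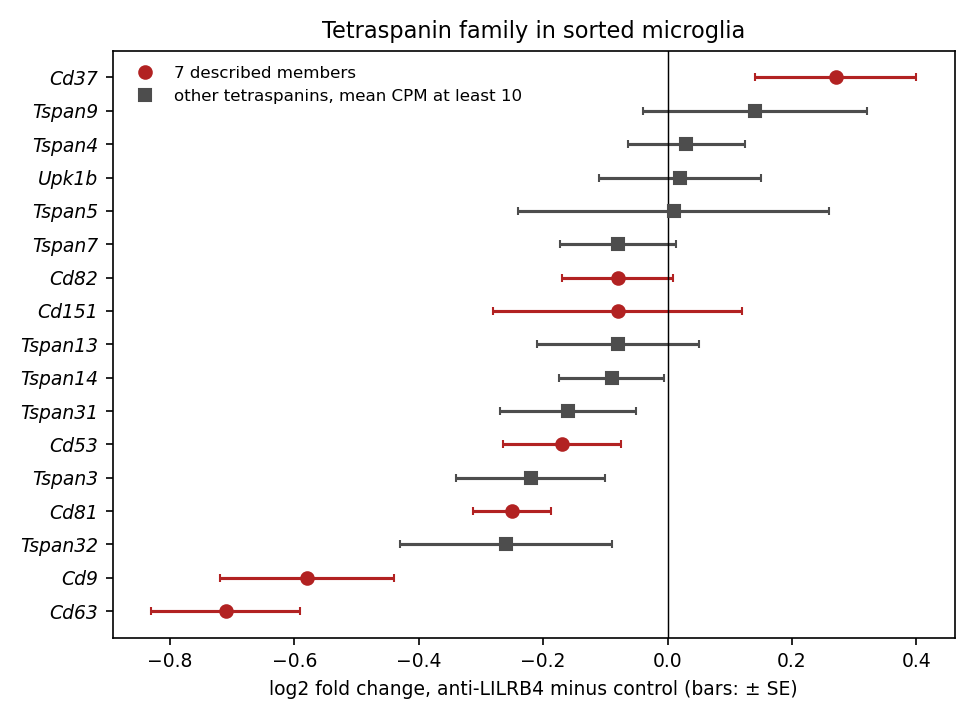
Log2 fold change, anti-LILRB4 minus control, with bars of 1 standard error, for the 7 described members (red circles) and the 10 other tetraspanins of at least 10 CPM (grey squares). Cd63 (-0.71) and Cd9 (-0.58) lie lowest and Cd37 (0.27) highest, and the other tetraspanins lie between -0.26 and 0.14.

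Some tetraspanin genes lie side by side in the genome. Tspan4 starts 3.77 kb after the end of Cd151 on chromosome 7, and their log2 fold changes were 0.03 and -0.08. Tspan32, a gene of blood cells, ends 33.1 kb before Cd81 on the same chromosome, and was at -0.26 beside -0.25 for Cd81. It was at 35.7, 51.2 and 36.6 CPM in controls and at 31.6, 37.4 and 34.2 CPM in treated libraries, with overlap, and an edgeR adjusted p of 0.749. Tspan18 lies 84.6 kb from Cd82 on chromosome 2 and was low. It was at 1.85, 7.06 and 7.51 CPM in controls and 7.31, 11.8 and 13.5 CPM in treated libraries, with overlap. Its log2 fold change was 0.99 ± 0.46 (SE, edgeR adjusted p 0.632), beside -0.08 for Cd82.

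Lists of genes that work with tetraspanins were compared as counts, beside the shares over all genes tested, of which 3.91% were lower and 4.12% higher below an unadjusted p of 0.05 in edgeR. In the list of partners (integrins, the EWI proteins Igsf8 and Ptgfrn, ADAM proteases and others) 20 of 23 were tested, 3 were lower and 0 higher below an unadjusted p of 0.05, and 0 were called by edgeR. DESeq2 called 1 lower, Ifitm3, where it called 0.553% of genes lower. The list's median log2 fold change was 0.03. Ifitm3, an interferon-induced membrane protein, was at 122, 70.3 and 95.5 CPM in controls and 28.5, 46.2 and 44.5 CPM in treated libraries, with a log2 fold change of -1.27 (edgeR adjusted p 0.386, DESeq2 adjusted p 5.38e-05). Clec7a, the Dectin-1 receptor, had -0.75 with overlapping groups (adjusted p 0.506). The abundant partners Itgb2, the leukocyte integrin beta chain, Scarb2, a lysosomal membrane protein, and Adam10 had 0.13, 0.02 and -0.07. The list of ADAM10 and the tetraspanins that carry it had 5 of 7 members tested, 0 of them at an unadjusted p under 0.05, and a median of -0.07.

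In a list built around the compartment that CD63 marks, genes were about as often higher as lower. That list also holds genes beyond the compartment, such as the transcription factor genes Tfeb, Tfe3 and Mitf. In the list of late endosome and exosome genes 29 of 30 were tested, with 14 positive and 15 negative log2 fold changes and a median of -0.01. Those below an unadjusted p of 0.05 in edgeR were 1 higher, Hgs, which sorts cargo into multivesicular bodies (0.61, adjusted p 0.538), and 1 lower, the transcription factor gene Mitf (-0.46, adjusted p 0.601), beside 4.12% higher and 3.91% lower among all genes. Both edgeR and DESeq2 called 0 genes of this list. Lamp2, a lysosomal membrane protein, was at 1384, 1228 and 1374 CPM in controls and 1297, 1014 and 1131 CPM in treated libraries, with overlap and a log2 fold change of -0.21. Cd68, another lysosomal membrane protein, had -0.04, and Lgmn, the protease legumain, 0.08. The difference between Cd63 and this list was not tested. In the list of disease-associated genes 4 of 18 were lower and 0 higher below an unadjusted p of 0.05 (3.91% and 4.12% of all genes), with a median of -0.21. Of these 18 edgeR called 0 and DESeq2 1, lower. That gene was Axl, a receptor for apoptotic cells, with a log2 fold change of -1.08 (edgeR adjusted p 0.385, DESeq2 adjusted p 1.97e-05). The cathepsin genes Ctsd and Ctsb had 0.14 and 0.05, and Trem2, a lipid-sensing receptor, had -0.01.

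Markers of other cells that express tetraspanins were set beside these values. Below an unadjusted p of 0.05, 3 of 10 neutrophil markers were lower and 0 higher, beside 3.91% and 4.12% of all genes. Their median log2 fold change was -1.0, and edgeR and DESeq2 called 0 of them, though DESeq2 gave Ngp no adjusted p. S100a8 was at 653, 249.5 and 284 CPM in controls and 57.6, 412 and 85.9 CPM in treated libraries, and Ngp at 265, 154 and 137 and at 32, 382 and 52.4 CPM. Anti-LILRB4 2 had a neutrophil marker sum of 1074 CPM, above controls 2 and 3, and the lowest Cd63 of all 6 libraries, at 696 CPM. Not all markers followed the sum, in which S100a8 and Ngp were the most abundant. The less abundant Retnlg, Mmp8 and Ly6g, 3 of the 10, were lower in every treated library, anti-LILRB4 2 included, than in any control. Among all genes tested 7.79% were lower in this way, without overlap between the groups. Control 1 had the highest sum, 1303 CPM, and the highest Cd63 and Cd9. Without control 1 the log2 fold changes were -0.58 for Cd63 and -0.44 for Cd9, and without anti-LILRB4 2 they were -0.65 and -0.51. The part of neutrophils in the Cd63 and Cd9 values was not tested.

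**Figure D5:**
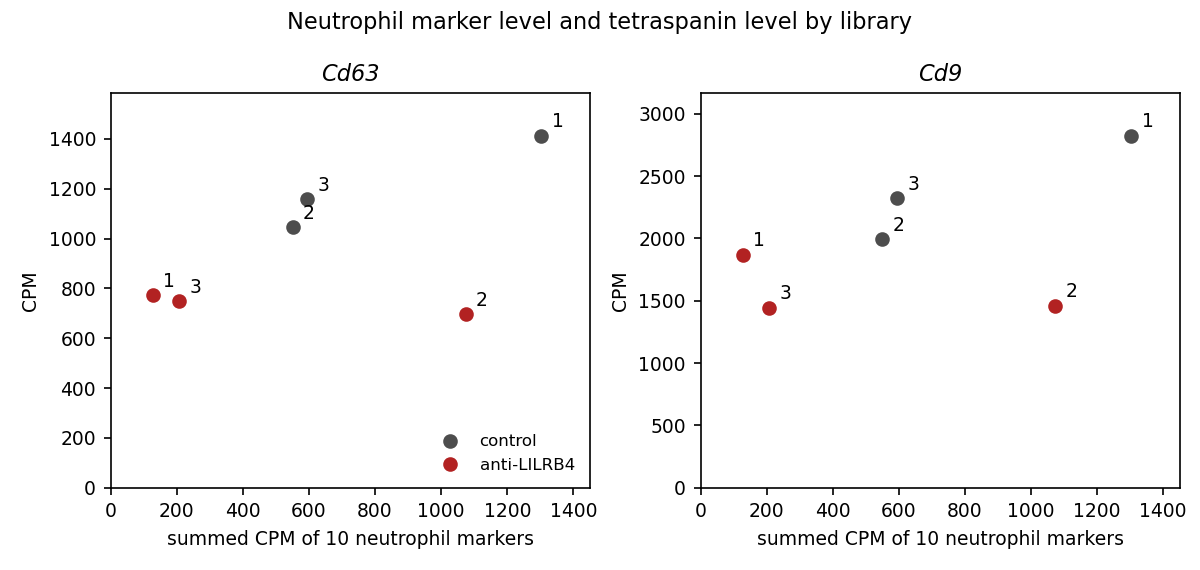
CPM of Cd63 and Cd9 against the summed CPM of 10 neutrophil markers, with 1 point per library, numbered within controls (grey) and anti-LILRB4 libraries (red). Anti-LILRB4 2 has a marker sum of 1074 CPM with Cd63 at 696 CPM, below controls 2 and 3, whose sums were 550.2 and 595 CPM. Of the 10 markers 3 (Retnlg, Mmp8 and Ly6g) were lower in anti-LILRB4 2 than in every control. These 3 were lower in all treated libraries, as were 7.79% of all genes tested. The part of neutrophils in these values was not tested.

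B cell markers summed to 540.1, 451 and 514 CPM in controls and 587, 699 and 621 CPM in treated libraries, without overlap, and the highest sum and the highest Cd37 were both in anti-LILRB4 2. Most of that sum was the immunoglobulin gene Ighm, at 398 to 413 CPM in controls and 495 to 549 CPM in treated libraries. Cd79b was at 35.2 to 82.7 and at 67.4 to 91 CPM, and Pax5 was at 1.19 CPM or less in all 6. Of the 6 markers 1, Ighm, was higher below an unadjusted p of 0.05 and 0 were lower, beside 4.12% and 3.91% of all genes. DESeq2 called Ighm higher (adjusted p 0.0314), where it called 0.546% of genes higher, and edgeR called 0 of the 6. The list's median log2 fold change was 0.20, and the part of these markers in the Cd37 values was not tested. Oligodendrocyte markers, from cells rich in Cd9 and Cd81, summed to 125 to 144 CPM in controls and 159 to 171 CPM in treated libraries, where Cd9 and Cd81 were lower. Their median was 0.18, with 2 of 6 tested higher and 0 lower below an unadjusted p of 0.05 (4.12% and 3.91% of all genes), and Cldn11 was at 0.0904 CPM or less in every library. Platelets carry CD9 and CD63, and of their markers Gp1bb was at 0 in every library and Ppbp at 0 in all but anti-LILRB4 1 (0.133 CPM). The platelet list had a median of 0.36 over 4 tested, with 1, Gp9, higher below an unadjusted p of 0.05 (4.12% of all genes) and 0 lower (3.91%). DESeq2 called Gp9 higher (adjusted p 0.0452), and edgeR called 0 of the list. Astrocyte markers had a median of -0.06 with 0 of 6 genes at an unadjusted p under 0.05, and all but Slc1a3 were at 1.96 CPM or less.

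Other marker lists were low, and their counts below an unadjusted p of 0.05 stand beside the same 3.91% lower and 4.12% higher. Border-associated macrophage markers summed to 25.7 to 40.2 CPM in controls and 34.9 to 57.1 CPM in treated libraries (median log2 fold change 0.55, with 0 of 8 genes at an unadjusted p under 0.05). Monocyte markers summed to 43.4 to 91 and 27.1 to 69.5 CPM (median -0.52, 1 of 5 tested lower). T and NK cell markers summed to at most 2.33 CPM (median -2.01 over 2 tested, 1 lower). Endothelial markers summed to 11.1 to 24.6 CPM (median 0.64 over 4 tested) and neuron markers had a median of 0.11 over 2 tested, with 0 of either list at an unadjusted p under 0.05. The microglia markers had a median of 0.11, with 3 of 8 higher and 0 lower below an unadjusted p of 0.05 (4.12% and 3.91% of all genes) and 0 called by edgeR or DESeq2.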

How the data were processed

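Deposited read counts per Ensembl gene were used as the authors gave them; per the submitters' processing notes the tools named are STAR, Subread featureCounts, Salmon and DESeq2 1.38.3, with no role, and the build is not given in the sources used here. The authors' deposited table gives, per the file headers, a mean normalized signal per gene, a log2 fold change with its standard error, a score (their ratio) and p-values. Per the labels' protocols cDNA came from a low-input kit, and strand-specific counting is not stated. Of the counts, 287 repeated identical rows were dropped, which left 55493 genes.

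The fit was edgeR 4.0.16 (R 4.3.3) with filterByExpr (minimum count 10), TMM and the quasi-likelihood F test on 18210 genes, Benjamini-Hochberg adjusted at 0.05. Log2 CPM used a prior count of 2, and standard errors are the fold change over the square root of F. DESeq2 1.42.0, limma 3.58.1 (voom), other scalings and filters, a replicate block and leaving out each library were alternatives. Gene models are GENCODE M21 (GRCm38), joined by identifier, and promoters are RefSeq's, matched for all 7 genes. Groups came from sample titles. Figures used matplotlib 3.10.9.

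The members and lists were chosen with earlier results of these data known. Named were all members, other tetraspanins of at least 10 CPM, per list the 3 most abundant and up to 2 of smallest p, the 2 most abundant markers, and the 3 genes most alike. Tspan18, Upk1a and single markers beyond these were named after their values were seen, Tspan18 for its position, and the promoter motifs were also chosen late. The result for 1 marker gene that this rule names is not reported here.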

Additional observations from a re-analysis of the deposited data

How the results depend on the processing

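Of the 2 counts over all genes, 0 higher and 0 lower, DESeq2 gave 84 higher and 85 lower, and edgeR with no filter on low counts 183 higher and 117 lower, both with Cd63 and Cd9 among the lower genes. The cause was not tested. Counts were 0 in each direction with DESeq2 size factors, library size only, upper quartile scaling, limma-voom, a CPM of at least 1 in 3 libraries, robust dispersion, an adjusted p of 0.1 and without each library in turn (0 to 0). Leaving out single libraries gave log2 fold changes of -0.79 to -0.58 for Cd63, -0.71 to -0.44 for Cd9, -0.27 to -0.21 for Cd81, -0.24 to -0.09 for Cd53, -0.12 to -0.05 for Cd82, 0.16 to 0.36 for Cd37 and -0.33 to 0.12 for Cd151. Other settings kept the sign of all 7, and all but Cd151 kept it in all 15 settings. Same-numbered libraries of the groups did not all deviate together (r = 0.104, 0.235 and -0.068 over 8165 genes), so the numbers were not taken as pairs. With a replicate block the counts were 0 and 0, and Cd63 was at -0.70, Cd9 at -0.58 and Cd151 at -0.12. Depth did not limit the members, which had at least 3062 reads in every library, and 3 libraries per group limit the precision.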

Other observations

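Upk1b, a tetraspanin known as a uroplakin of bladder epithelium, was among the abundant tetraspanins of these sorted cells. It was at 373, 501 and 477 CPM in controls 1, 2 and 3, and at 497, 395 and 481 CPM in anti-LILRB4 1, 2 and 3, with overlapping groups. Per kilobase of merged exons it stood at 217, above Cd37 (144) and Cd82 (135). Per kilobase of the principal transcript it stood at 239.7, below Cd37 (412) and above Cd82 (223). Upk1a, its relative in the same epithelium, was at 0.859 CPM or less in every library. Tspan14 stood at 345 CPM per kb, above Cd63 (264) on that scale and below it per principal transcript (369 beside 877).

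Of genes used as platelet markers, Itgb3, an integrin chain, was at 47 to 77.9 CPM and Gp9 at 14.4 to 19.3 CPM in controls and 23.1 to 35.6 CPM in treated libraries, without overlap, while Ppbp and Gp1bb were at or near 0. Gp9 had a log2 fold change of 0.74, with an edgeR adjusted p of 0.438 and a DESeq2 adjusted p of 0.0452.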
